A study of Mus musculus with 6 samples.

Results

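The natural killer gene complex is a cluster of genes for lectin-like receptors on mouse chromosome 6. It was described here as all CpGs between positions 128300000 and 130400000 of chromosome 6 (GRCm38), with the body of Cd69 left out. The 6 files listed 3003 CpGs of the interval in at least 1 library, of 4175106 in the series, and 921 of them were covered, with 5 or more reads in every library, of 1192344. The body of Cd69 held 0 listed CpGs, so that leaving it out removed none. DNA was taken from CD8+ T cells enriched from lymph nodes of 13-week-old C57BL/6N mice of 3 genotypes, with 2 libraries each: WT (wt), hSTAT5B (hSTAT5B +/T), and hSTAT5B N642H (hSTAT5B N642H +/T), the last from diseased mice. Both transgenes carried human STAT5B under the Vav1 promoter, which is active in hematopoietic cells, and each was represented by 1 mouse line. They differed by the N642H mutation, and WT mice carried neither. The question put to these data was whether methylation or read coverage of the complex differed among the genotypes. Methylation was measured by reduced representation bisulfite sequencing (RRBS), which reads CpGs next to MspI sites (CCGG). The level of a CpG is the percent of its reads that were methylated. The labels do not say that libraries of a genotype came from separate mice, so p-values measure the spread between these libraries only.

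Lectin-like receptors of the complex tell NK cells and some T cells whether a neighbouring cell is healthy. The Klra genes encode Ly49 receptors, which bind MHC class I, and Klrd1 (CD94) pairs with the Klrc (NKG2) proteins for a similar task, whereas Klrk1 encodes NKG2D, an activating receptor for stress ligands. The Klrb1 genes encode NKR-P1 receptors, and their ligands are encoded by neighbouring Clec2 genes. Between these groups lie lectins of myeloid cells and platelets, such as Clec7a (dectin-1), Clec9a, Clec12a, Clec1b, and Olr1. Activated and memory CD8+ T cells can also express Klrk1, Klrd1, Klrc1, and Klra genes. STAT5 acts downstream of IL-2 and IL-15, cytokines on which NK cells and memory CD8+ T cells depend.

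The sequences on which the results turn were read from the GRCm38 genome, plus strand, 5' to 3', and covered CpGs (5 or more reads in every library) are in capitals. The windows with the named single CpGs lie at chr6:130276389-130276448 (intron of Klra10) and chr6:128457710-128457769 (intron of the antisense gene Gm10069). The CpGs of the 5-kb bin with the smallest p for reads lie at chr6:129059935-129060011, beyond the 3' end of Klrb1f. Windows before the starts of Clec1b (chr6:129397085-129397143) and Klra8 (chr6:130130535-130130660) are shown because covered CpGs near receptor promoters were few. The last pair are unmethylated stretches amid the methylated Klrb1 and Clec2 genes, at chr6:128764210-128764465 (intergenic) and chr6:128843065-128843300 (across the start of the lincRNA gene Gm44066).
Klra10 intron CpG: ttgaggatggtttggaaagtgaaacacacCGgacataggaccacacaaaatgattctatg
Gm10069 intron CpG: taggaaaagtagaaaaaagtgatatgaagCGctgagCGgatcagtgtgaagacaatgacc
Klrb1f downstream: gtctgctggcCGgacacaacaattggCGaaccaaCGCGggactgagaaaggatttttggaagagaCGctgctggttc
Clec1b upstream: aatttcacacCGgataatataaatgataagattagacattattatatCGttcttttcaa
Klra8 upstream: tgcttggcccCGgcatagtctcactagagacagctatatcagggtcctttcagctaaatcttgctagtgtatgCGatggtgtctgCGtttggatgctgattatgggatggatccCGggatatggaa
intergenic low stretch: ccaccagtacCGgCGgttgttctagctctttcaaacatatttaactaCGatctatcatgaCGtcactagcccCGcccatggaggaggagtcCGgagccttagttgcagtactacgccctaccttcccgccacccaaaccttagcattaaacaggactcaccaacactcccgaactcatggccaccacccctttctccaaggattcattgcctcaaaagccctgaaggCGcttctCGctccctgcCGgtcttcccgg
Gm44066 low stretch: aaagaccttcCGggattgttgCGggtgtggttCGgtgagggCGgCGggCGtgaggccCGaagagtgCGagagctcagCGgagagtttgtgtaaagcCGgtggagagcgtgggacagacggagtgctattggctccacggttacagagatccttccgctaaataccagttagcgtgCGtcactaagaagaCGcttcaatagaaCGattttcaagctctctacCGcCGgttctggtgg

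RRBS saw little of the receptor genes. Of the 41 annotated lectin-like receptor genes, 34 of them protein coding, 14 had at least 3 covered CpGs in the gene body with 2 kb on each side, 23 had at least 1, and 18 had 0. Klrk1 and Klrc3 had 0 CpGs listed in any library, although the sequence around Klrk1 holds 68 CpGs and 3 CCGG sites. Klrd1 had 2 listed CpGs and 0 covered ones, so that neither NKG2D nor CD94 could be compared. The block from Klre1 to Klri2, which holds both, had 12 covered CpGs over 166.6 kb and 19.2 CCGG sites per 100 kb, whereas chromosome 6 as a whole has 57.6. CCGG sites were denser in the flank from Tulp3 to A2ml1 (108.4 per 100 kb), where 350 of the 921 covered CpGs lie, than in the Klrb1 and Clec2 block (64.5) and the Ly49 block (43.2). Of 39 RefSeq promoters (GRCm38, 250 bases before to 50 after a start) of these receptor genes, 8 (20.5%) hold CCGG, against 52.8% of all 32851 promoters. The STAT5 motif TTCNNNGAA, which reads the same on both strands, is in the promoters of Klrb1f, Klra7, and Klra10, or 7.69% of the receptor promoters, against 8.30% of all promoters.

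The complex was highly methylated in all genotypes, and slightly less so in hSTAT5B N642H. The mean level of the 921 CpGs was 70.35% and 70.44% in WT, 70.25% and 70.03% in hSTAT5B, and 69.36% and 69.42% in hSTAT5B N642H. Both hSTAT5B N642H libraries lay below the other 4. The mean in hSTAT5B N642H was 1.00 percentage points below WT (69.39% ± 0.046 against 70.39% ± 0.066, SD, n = 2 each) and 0.752 below hSTAT5B (70.14% ± 0.16). The difference between hSTAT5B and WT was 0.250, with hSTAT5B lower. An exact permutation test, 2-sided, gave p = 0.333 in all 3 comparisons, also after adjustment over them, and this is the smallest p that 2 against 2 libraries can give. Set against the other 4 libraries, hSTAT5B N642H was lower by 0.877, with an exact permutation p = 0.133, the smallest that 2 against 4 can give. All other CpGs of the genome were also lower in hSTAT5B N642H than in WT (61.99% against 62.49%). With reads pooled over the CpGs of a library, so that deep CpGs weigh more, the difference was -1.97 against WT and -2.07 against hSTAT5B. Relative to all other CpGs, the level of the complex in hSTAT5B N642H lay 0.511 below WT and 0.0739 below hSTAT5B (exact permutation p = 0.333 and 0.667). On this measure hSTAT5B also lay below WT, by 0.437 (exact permutation p = 0.333). The lower relative level was thus not particular to hSTAT5B N642H.

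The difference had the same direction in the 3 stretches with the most CpGs. In the Ly49 block the level was 94.2% and 94.8% in WT, 94.6% and 94.3% in hSTAT5B, and 93.5% and 93.8% in hSTAT5B N642H. The Klrb1 and Clec2 block had 77.1% and 76.6% in WT, 77.02% and 76.40% in hSTAT5B, and 75.6% and 76.3% in hSTAT5B N642H. In the flank the level was near 49% in all libraries, between 48.1% and 49.5%. The hSTAT5B N642H libraries were below both WT libraries in each of these stretches, by 0.858 to 0.921 on average. The widest difference among the 7 stretches was in the stretch around Cd69. Its 14 CpGs stood at 76.8% and 74.3% in WT, 75.4% and 75.6% in hSTAT5B, and 69.8% and 69.2% in hSTAT5B N642H. The stretch is 152.2 kb long. Its only CpGs within 10 kb of the start of Cd69 are those at 129284216 and 129284520, and the others lie up to 81.1 kb away. The mean of the stretch thus does not describe Cd69 itself. The CpG with the widest difference in the stretch, chosen after its values were seen, was at 129284216. It lies 8.78 kb before the start of Cd69, a gene for an early activation marker. It stood at 68.2% and 34.8% in WT, 46.7% and 58.3% in hSTAT5B, and 18.8% and 20.7% in hSTAT5B N642H. The CpG at 129284520 was at 0% to 6.38% in all libraries. Within the 153 CpGs of receptor genes the level in hSTAT5B N642H was 0.462 below WT, less than in the interval as a whole. Within the 79 of them in Ly49 genes it was 0.201 above WT, with overlapping libraries, whereas the mean of each other receptor family was lower. Only in the Klrb1 and Clec2 genes were both hSTAT5B N642H libraries (90.72% and 90.65%) below both WT libraries (91.54% and 91.34%). In the myeloid lectin genes and in the CD94 and NKG2 genes these libraries overlapped as well.

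**Figure D1:**
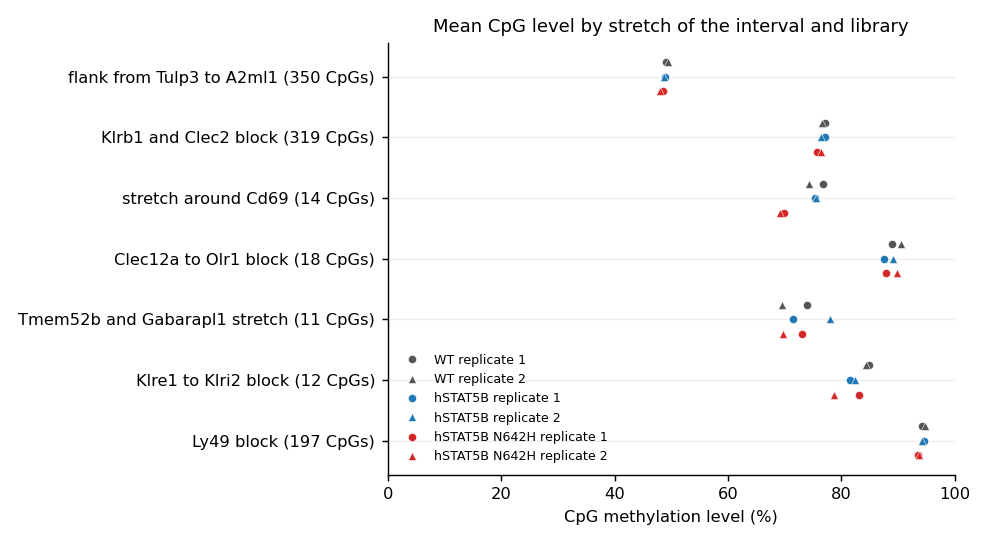
Mean CpG methylation level in percent (x axis) in 7 stretches of the interval (y axis, covered CpGs in brackets), with 1 symbol per library, colour for genotype and shape for replicate number. The Ly49 block lies highest, at 93.5% to 94.8%, and the flank lowest, at 48.1% to 49.5%. In the stretch around Cd69, 152.2 kb long, the hSTAT5B N642H libraries, at 69.8% and 69.2%, lie below the WT and hSTAT5B libraries, at 74.3% to 76.8%. In the Tmem52b and Gabarapl1 stretch the genotypes overlap, within 69.6% to 78.0%.

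Most CpGs of the complex were either methylated or free of methylation in WT. Of the 921 CpGs, 610 (66.2%) were above 80% and 220 (23.9%) below 20%, against 58.1% and 31.2% of all other CpGs. Of the 220, 165 lay in the flank, 50 in the Klrb1 and Clec2 block, and 0 in the Ly49 block. Within the receptor gene windows, 134 of 153 CpGs were above 80% and 1 below 20%. CpGs below 20% formed 13 stretches of at least 3 CpGs, with 206 CpGs in all. The flank had 8, of which 7 lay within 1 kb of the starts of Tead4, Tulp3, Rhno1 and Foxm1, Itfg2, and Fkbp4, genes of other functions. The other 5 lay in the Klrb1 and Clec2 block, and 4 of those were not within 1 kb of any annotated start.

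These stretches stayed low in every genotype. The 15 CpGs at Gm44066 were at 1.67% and 1.94% in WT, 1.56% and 0.317% in hSTAT5B, and 1.43% and 2.13% in hSTAT5B N642H. The 9 CpGs of the intergenic stretch, 14.0 kb from Klrb1c, were at 2.22% and 1.90% in WT, 1.56% and 3.15% in hSTAT5B, and 1.73% and 1.91% in hSTAT5B N642H. A stretch of 13 CpGs within Gm44511, a gene model that overlaps Klrb1c and Klrb1b, was between 0.991% and 2.02% in all libraries. Klrb1c encodes NK1.1, the antigen by which NK cells of this strain are recognized. Another 5 CpGs, 23.9 kb from Klrb1c, varied most between libraries, with 13.03% and 3.01% in WT, 16.5% and 5.02% in hSTAT5B, and 24.8% and 10.3% in hSTAT5B N642H. There the libraries of the genotypes overlap. Stretches were found by their WT levels after the data had been seen, so no test was made on them.

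**Figure D2:**
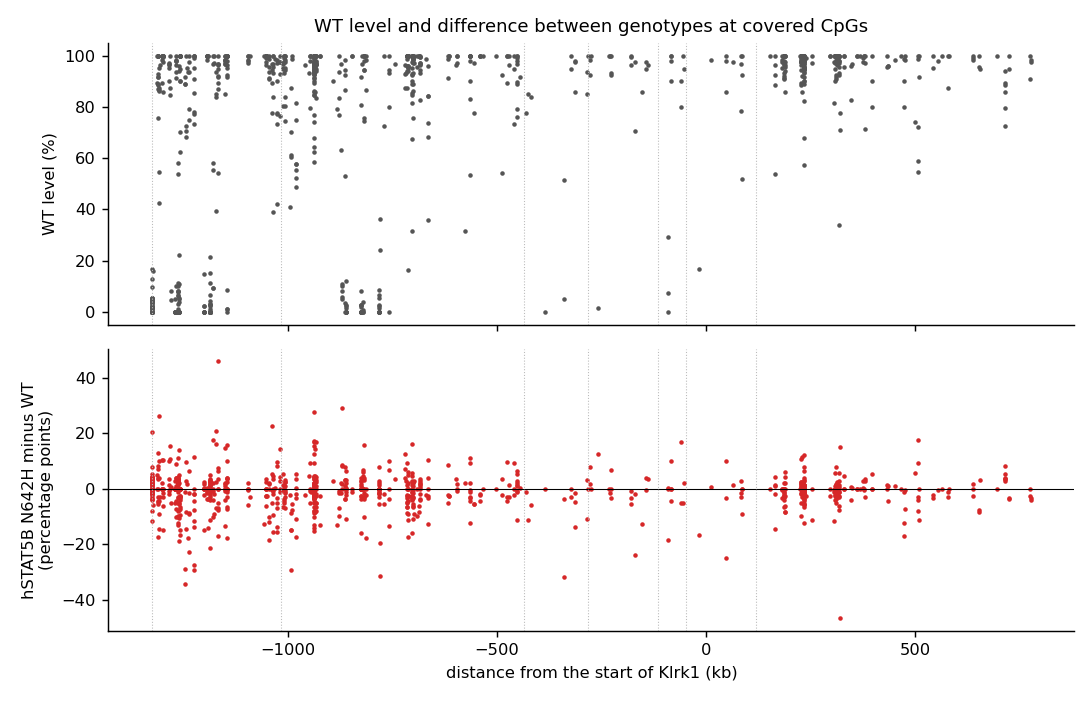
Each point is 1 of the 921 CpGs, placed by its distance in kb from the start of Klrk1 (x axis), with dotted lines at the borders of the 7 stretches. The upper panel gives the WT level (mean of 2 libraries, percent) and the lower panel the difference of hSTAT5B N642H minus WT in percentage points. Low CpGs cluster in the flank and the Klrb1 and Clec2 genes on the left, and differences scatter on both sides of 0 along the whole interval.

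No gene of the complex passed the test in any comparison. By limma, applied to the log2 ratio of methylated to unmethylated reads after 1 was added to each, 0 of 53 genes had an adjusted p under 0.05, as was the case for 0% of the 31508 genes of the genome in each comparison. An unadjusted p under 0.05 was found for 4 of the 53 genes in hSTAT5B N642H minus WT (7.55%, against 7.66% of all genes), 4 in hSTAT5B minus WT (against 6.11%), and 3 in hSTAT5B N642H minus hSTAT5B (against 7.82%). These shares were near the background. Some of the genes counted are not independent. Gm44596 and Gm15862 share their CpGs in the first comparison, as do Gm44066, Gm44067, and Gm26656 in the second. The median difference over the 53 genes was -0.784 percentage points in hSTAT5B N642H minus WT, against -0.252 over all genes. In simulated data, changes were placed only in features with at least the median number of reads. There the adjusted limma test had little power for genes and CpGs. A quasi-binomial model, which did recover large differences at such genes, also called 0 of the 53. Its power at genes with fewer reads was not tested. Fisher's exact test was run on the summed reads of each genotype, and so was blind to the spread between libraries. It called 13, 3, and 12 of the 53 genes in the same order. The share of all genes that it called is not given here, so these counts cannot be set against a background.

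Among the Klrb1 and Clec2 genes, 3 of 13 could be tested and 0 passed. Klrb1a, with 18 CpGs and 747 to 1093 reads per library, stood at 93.1% and 93.6% in WT, 94.8% and 92.4% in hSTAT5B, and 92.9% and 91.9% in hSTAT5B N642H. Clec2g, with 21 CpGs, ranged from 88.1% to 91.0% and Clec2h, with 6 CpGs, from 93.9% to 99.0%. In Klrb1a both hSTAT5B N642H libraries were below both WT libraries, by 0.935 percentage points on average (limma adjusted p = 0.784), whereas in Clec2g they overlapped. The single covered CpG of Klrb1f, in an intron, was the lowest of the receptor genes, with 32.0% and 30.8% in WT, 43.2% and 42.9% in hSTAT5B, and 52.9% and 14.3% in hSTAT5B N642H. The hSTAT5B N642H libraries lay on both sides of all others.

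Of the 7 myeloid and endothelial lectin genes 3 could be tested, and 0 passed. Clec1a had 91.4% and 94.0% in WT, 86.7% and 86.1% in hSTAT5B, and 83.6% and 87.6% in hSTAT5B N642H. All 4 transgenic libraries lay below WT there, by 7.08 percentage points in hSTAT5B N642H (limma adjusted p = 0.731) and 6.28 in hSTAT5B (adjusted p = 0.919). Clec12a, an inhibitory receptor of myeloid cells, was the least methylated of the 14 receptor genes in WT, with 71.1% and 75.0%, and reached 78.0% and 79.2% in hSTAT5B N642H. Its hSTAT5B libraries, at 66.96% and 78.7%, spanned both. Clec1b, the podoplanin receptor of platelets, was between 93.5% and 99.4%.

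In the CD94 and NKG2 group 2 of 8 genes had at least 3 covered CpGs, and 0 passed. Klrc1, which encodes the inhibitory partner NKG2A, had 3 CpGs with 93.1% and 96.0% in WT, 84.7% and 97.6% in hSTAT5B, and 95.4% and 81.4% in hSTAT5B N642H. Klri1, whose product is expressed on NK cells, was between 82.9% and 87.5% over 6 CpGs. In Klrc1 replicates of a transgenic line differed by more than the genotype means did.

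The Ly49 genes stood at 92.4% to 93.5% over 79 CpGs, and of the 6 of 13 that could be tested 0 passed. Unlike the Ly49 block, these CpGs were not lower in hSTAT5B N642H than in WT (difference 0.201 percentage points). Of the 6 genes, 3 were higher and 3 lower in hSTAT5B N642H. Klra17 (Ly49Q, known from plasmacytoid dendritic and myeloid cells) had the most covered CpGs, 54, and 1384 to 2345 reads per library, and its level was between 93.8% and 95.8%. Klra10, with 3 covered CpGs, had the smallest limma p of the receptor genes in both comparisons with WT. It stood at 96.5% and 97.0% in WT, 93.0% and 90.3% in hSTAT5B, and 93.5% and 91.2% in hSTAT5B N642H, so that all 4 transgenic libraries lay below WT. The difference was -5.07 percentage points for hSTAT5B (limma adjusted p = 0.609) and -4.42 for hSTAT5B N642H (adjusted p = 0.489). In Klra3 (Ly49C) the transgenic lines lay on opposite sides of the WT mean, with 82.1% and 87.7% in WT, 78.8% and 80.3% in hSTAT5B, and 85.4% and 93.6% in hSTAT5B N642H (limma adjusted p = 0.6004 between the lines). Klra8 (Ly49H, an activating receptor) was between 71.9% and 86.6%, with 80.7% and 71.9% in WT. Klra4 and Klra6 were above 91% in all libraries, apart from 80% and 86.7% in 1 WT and 1 hSTAT5B N642H library of Klra6.

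**Figure D3:**
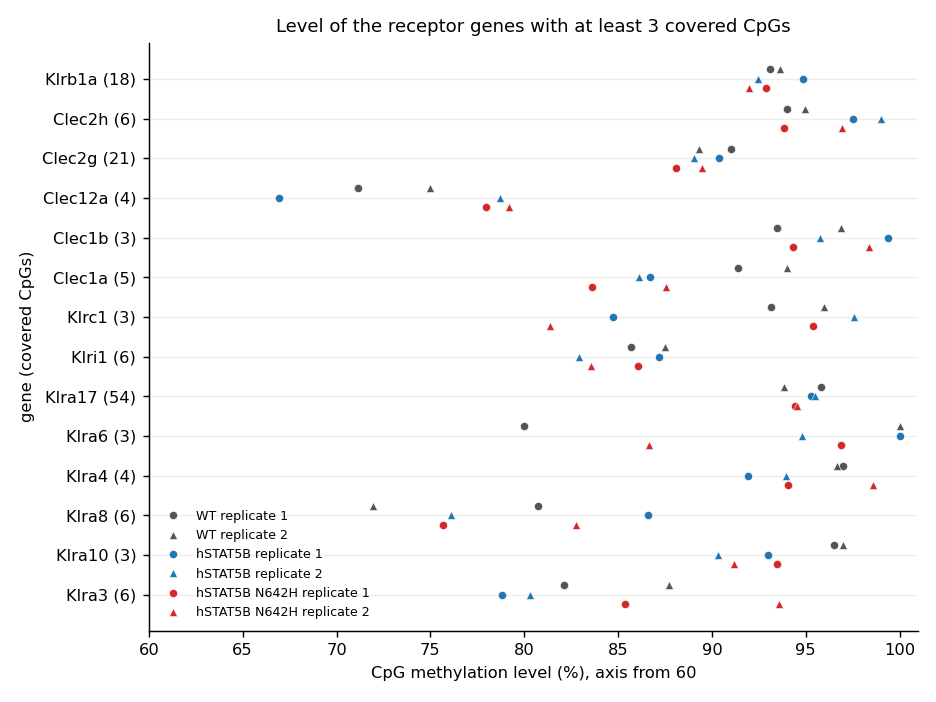
CpG methylation level in percent (x axis, from 60) of the 14 receptor genes with at least 3 covered CpGs (y axis, CpGs in brackets), 1 symbol per library as named in the key. Values of Klra17 lie within 93.8% to 95.8%, whereas genes with few CpGs such as Klra6 and Klrc1 spread widely within a genotype.

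Promoters of receptor genes, taken as 1 kb on each side of an annotated start, held covered CpGs in 6 of 41 genes, with 19 CpGs in all and 0 in the CD94 and NKG2 group. The 3 CpGs of Clec1b, of which 2 are in the printed window, were at 82.9% or more in all libraries. The 2 CpGs before Clec2g were at 62.5% to 100%, with 7 to 23 reads, and both have an identical copy of their surrounding 51 bases elsewhere in the interval. Klra3 had 6 CpGs within 26 bases of its annotated starts, with 39 to 139 reads each, and levels from 62.7% to 100%. At the CpG 17 bases before a start of Klra3, the levels were 74.4% and 84.8% in WT, 65.4% and 77.9% in hSTAT5B, and 86.6% and 89.2% in hSTAT5B N642H. The 3 distal CpGs of the Klra8 window, 710 to 751 bases before a start, were at 42.4% to 81.5% and so were partly methylated in every genotype. The CpG at the near end of that window, 647 bases before the start, was at 93.3% to 100%.

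Single CpGs gave the same picture. With limma 0 of 921 CpGs passed in each comparison, as for 0% of the 1192344 CpGs of the genome. The quasi-binomial model also called 0. Fisher's exact test on pooled reads called 3 in hSTAT5B N642H minus WT, 4 in hSTAT5B minus WT, and 5 in hSTAT5B N642H minus hSTAT5B. The share of all CpGs that Fisher's exact test called is not given here. The unadjusted p was under 0.05 for 55 CpGs in hSTAT5B N642H minus WT (5.97%, against 6.28% of all CpGs), 53 in hSTAT5B minus WT (5.75%, against 4.85%), and 42 in hSTAT5B N642H minus hSTAT5B (4.56%, against 6.27%). Levels were lower in hSTAT5B N642H than in WT at 426 CpGs (46.3%) and higher at 318 (34.5%), and over the genome 43.4% were lower and 36.7% higher. In hSTAT5B N642H minus hSTAT5B, 3 of the 42 had the same level in both, since the log ratio also moves with reads where a level is 0 or 100%.

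The CpG with the smallest p in hSTAT5B minus WT lay in Klra10. The CpG in the intron of Klra10 was at 100% in both WT libraries, 81.5% and 86.4% in hSTAT5B, and 92.9% and 91.7% in hSTAT5B N642H, with 44 to 67 reads (limma adjusted p = 1). It is 1 of the 3 covered CpGs of Klra10, so the results for this CpG and for the gene are not independent. Another CpG named in this comparison lay at the Rhno1 start, at 128362464, with 0% in both WT libraries, 8.33% and 15.4% in hSTAT5B, and 1.75% and 3.08% in hSTAT5B N642H.

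In hSTAT5B N642H minus WT the smallest p belonged to the CpG at 128457739 in an intron of Gm10069, which was at 58.3% and 50.0% in WT, 90.0% and 100% in hSTAT5B, and 100% in both hSTAT5B N642H libraries, with 7 to 14 reads (limma adjusted p = 0.728). The others were the Klra10 CpG, a CpG of the Rhno1 start, a CpG shared by Gm44596 and Nrip2, and the CpG at 128941305 in an intron of Clec2g. The Clec2g CpG had 94.5% and 98.5% in WT and 100% in both hSTAT5B N642H libraries. In hSTAT5B N642H minus hSTAT5B, named CpGs were in Tulp3, Gm44596 with Nrip2 or Gm15862, and at 129940497, 22847 bp from Klra5. The last was at 100% in both hSTAT5B libraries, 94.2% and 92.4% in hSTAT5B N642H, and 88.5% and 96.6% in WT. The widest difference between hSTAT5B N642H and WT, chosen after the values were seen, was at 129944413, 26763 bp from Klra5, with 66.7% and 75.0% in WT, 66.7% and 57.1% in hSTAT5B, and 20% and 28.6% in hSTAT5B N642H. It rested on 5 to 18 reads per library (limma adjusted p = 0.728).

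**Figure D4:**
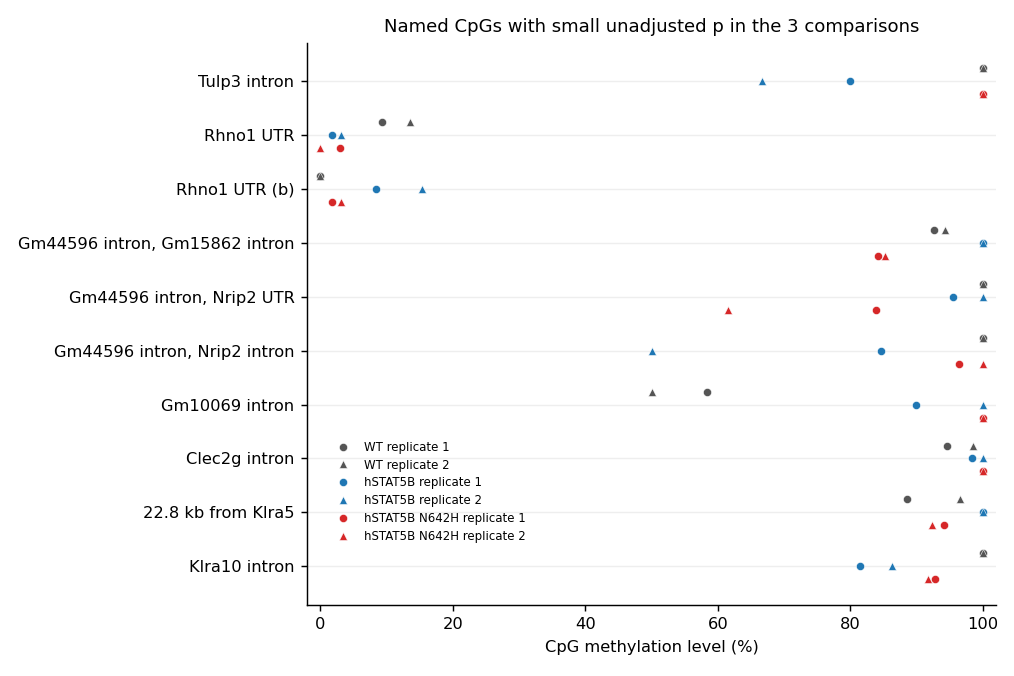
CpG methylation level in percent (x axis) of named CpGs with small unadjusted p in any comparison (y axis, by annotation or distance from the nearest protein-coding gene), 1 symbol per library. The CpG in Gm10069 lies at 50.0% and 58.3% in WT and at 90% or more in the other 4 libraries.

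Of the 39 other genes tested, those with an unadjusted p under 0.05 against WT in hSTAT5B N642H lay in the flank. Gm44596 and Gm15862 share 24 CpGs, which were at 88.2% and 87.8% in WT, 86.3% and 89.6% in hSTAT5B, and 77.9% and 80.4% in hSTAT5B N642H (limma adjusted p = 0.623). Tex52, which overlaps Gm44596, was at 85.7% and 85.2% in WT, 85.7% and 92.3% in hSTAT5B, and 69.9% and 80.8% in hSTAT5B N642H. Both hSTAT5B N642H libraries were below the other 4 in these overlapping genes. Foxm1, a transcription factor of the cell cycle whose 3' end overlaps Tex52, ranged from 26.1% to 28.5%. Gm44066, Gm44067, and Gm26656 share 17 CpGs, which were at 4.16% and 6.12% in WT, 2.55% and 2.10% in hSTAT5B (limma adjusted p = 0.783), and 2.36% and 1.88% in hSTAT5B N642H.

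Read coverage of the whole complex did not separate either transgenic line from WT, whereas both hSTAT5B N642H libraries lay above both hSTAT5B libraries. Reads at its CpGs, scaled to 1000000 reads of the library (RPM), were 682 and 654 in WT, 654 and 647 in hSTAT5B, and 689 and 657 in hSTAT5B N642H. The means were 668 ± 20 in WT, 651 ± 5.3 in hSTAT5B, and 673 ± 23 in hSTAT5B N642H (SD, n = 2 each). Exact permutation p-values were 0.667, 0.667, and 0.333 for hSTAT5B N642H minus WT, hSTAT5B minus WT, and hSTAT5B N642H minus hSTAT5B, each 0.667 after adjustment. The value of 0.333 is the smallest p that 2 against 2 libraries can give. The number of CpGs listed in the interval did differ, with 2517 and 2174 in WT, 1987 and 1901 in hSTAT5B, and 1951 and 1883 in hSTAT5B N642H. This was not particular to the complex. The whole series had 3445555 and 3067773 listed CpGs in WT, 2735623 and 2659254 in hSTAT5B, and 2779703 and 2597893 in hSTAT5B N642H. Within the interval, WT replicate 1 listed 245 CpGs that no other library did, whereas the others each listed 27 to 76. The part of this spread in the results below was not tested.

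Of the 420 bins of 5 kb, 208 had at least 30 reads over the 6 libraries, and 0 passed in any comparison by limma on log2(RPM + 0.5). Over the genome 0.00374% of bins passed in hSTAT5B N642H minus WT, 0.00136% in hSTAT5B minus WT, and 0% in hSTAT5B N642H minus hSTAT5B. The unadjusted p was under 0.05 for 30 bins (14.4%, against 14.8% of all bins), 17 bins (8.17%, against 9.31%), and 11 bins (5.29%, against 6.51%). Of the 30 bins, 23 were lower and 7 higher in hSTAT5B N642H. The median bin of the interval was lower in hSTAT5B N642H than in WT by 0.12 on the log2 scale, and that of the genome by 0.11. With WT replicate 2 left out, so that WT was represented by replicate 1 alone and assumed to vary like the other groups, 24 bins passed in hSTAT5B N642H minus WT, and 26923 bins of the genome, and 12 passed in hSTAT5B minus WT, and 13369 of the genome. Without WT replicate 1 the count was 0.

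The bin with the smallest p lay beyond the 3' end of Klrb1f, an NKR-P1 receptor gene. Its reads were 194 and 246 in WT, 473 and 522 in hSTAT5B, and 745 and 513 in hSTAT5B N642H, or 4.40 and 4.53 RPM in WT, 9.97 and 12.1 in hSTAT5B, and 11.1 and 10.1 in hSTAT5B N642H. All 4 transgenic libraries were above both WT libraries, with a log2 difference of 1.16 ± 0.17 (SE) for hSTAT5B N642H (limma adjusted p = 0.105) and 1.21 ± 0.17 for hSTAT5B (adjusted p = 0.424). With voom weights or median-of-ratios scaling 0 bins passed as well. With a pseudocount of 0.1 in place of 0.5 this bin and that in Tulp3 passed in hSTAT5B N642H minus WT (limma adjusted p = 0.0466 for each). The share of all bins of the genome that passed in this setting is not given here. Without WT replicate 2 the adjusted p of this bin was 0.0109 for hSTAT5B N642H and 0.0191 for hSTAT5B, and without WT replicate 1 it was 0.329 and 0.788. The reads of this bin came from the 5 CpGs of the printed Klrb1f window, which lie so close that a read can cover several, and a read is counted at each CpG it covers. These CpGs were methylated at 94.4% or more in every library.

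Other named bins differed in both directions, and 0 passed. The bin at 128350001, in an intron of Tulp3, had 85 and 56 reads in WT, 42 and 80 in hSTAT5B, and 8 and 5 in hSTAT5B N642H (log2 difference from WT -1.66 ± 0.30 SE, adjusted p = 0.111). The bin at 129540001, across the 3' end of Gabarapl1, an autophagy gene, had 26 and 35 reads in WT, 6 and 0 in hSTAT5B, and 2 and 5 in hSTAT5B N642H (adjusted p = 0.132). The bin at 129170001 before Clec2d, around Gm26160, had 4.47 and 4.94 RPM in WT, 8.24 and 7.76 in hSTAT5B, and 7.40 and 7.61 in hSTAT5B N642H (adjusted p = 0.424 for hSTAT5B). The bin at 129800001, within the pseudogene Gm16242, had 180 and 108 reads in WT, 73 and 104 in hSTAT5B, and 59 and 54 in hSTAT5B N642H (adjusted p = 0.135). The remaining named bins, at 128300001, 128560001, 128770001, 129045001, 129535001, and 129875001, had adjusted p-values of 0.125 or more in the comparisons that named them.

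**Figure D5:**
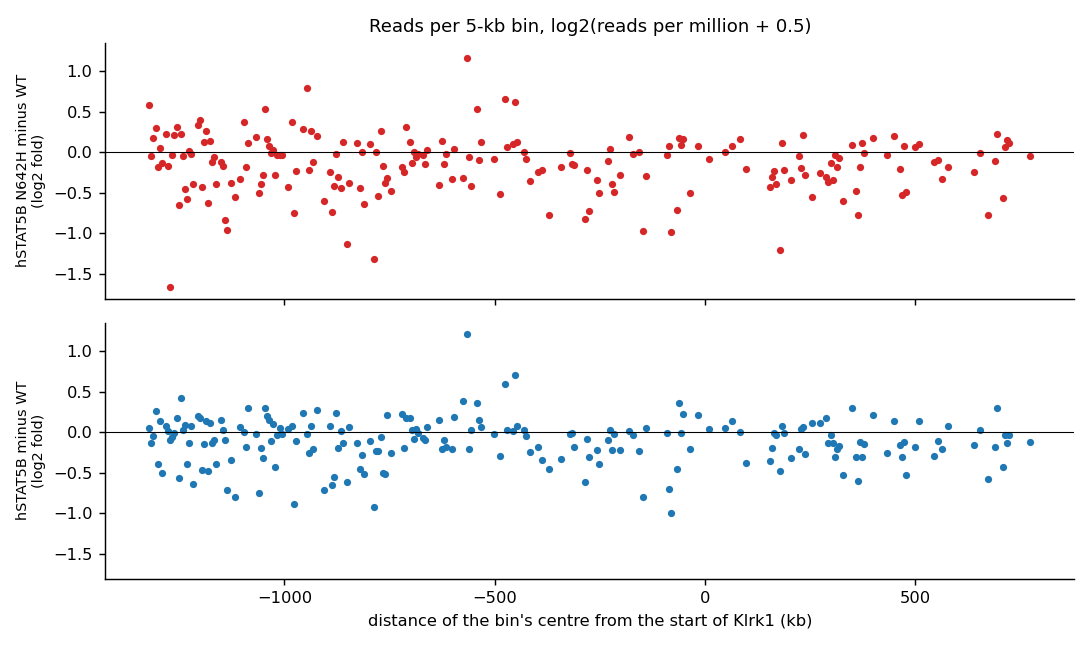
Difference in log2(RPM + 0.5) per 5-kb bin (y axis) against the distance of the bin's centre from the start of Klrk1 in kb (x axis), for hSTAT5B N642H minus WT (upper panel) and hSTAT5B minus WT (lower panel), 208 bins each. The bin beyond Klrb1f is the highest point of both panels, at 1.16 and 1.21, and both comparisons use the same 2 WT libraries.

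Markers of cell types outside the complex were read at CpGs within 10 kb of each gene, to set the label of CD8+ T cells beside the results. Of the CD8+ T cell markers, all 5 were covered, and Cd8b1 was at 44.2% and 45.6% in WT, 23.9% and 29.5% in hSTAT5B, and 13.9% and 14.3% in hSTAT5B N642H. Cd8a was at 65.7% and 35.8% in WT and at 29.8% to 42.6% in the other libraries. The mean of the 5 was 54.2% to 62.2% in WT, 51.3% to 52.0% in hSTAT5B, and 47.0% to 47.1% in hSTAT5B N642H. Its fall came mostly from Cd8a and Cd8b1, at -19.2 and -30.7 percentage points in hSTAT5B N642H minus WT. In the same comparison Cd3d differed by -2.35, Cd3e by -2.36, and Cd3g by -1.16. Cd3e was 1.09 higher in hSTAT5B than in WT. The 4 NK cell markers outside the complex (Ncr1, Nkg7, Eomes, Tbx21) had means of 50.7% to 54.8%. The 4 B cell markers had means of 46.9% to 63.2%, and 1 of them, Ms4a1, rested on 1 CpG at 50.0% to 100%. Cd4 was at 29.2% to 30.9%, and the 4 myeloid markers had means of 84.6% to 86.4%. Ncr1, the NK cell receptor NKp46, was at 100% and 97.2% in WT, 94.0% and 93.8% in hSTAT5B, and 84.5% and 96.0% in hSTAT5B N642H over 3 CpGs. The other NK cell markers, with more CpGs, differed less between hSTAT5B N642H and WT, by -1.94 percentage points at Nkg7, -0.163 at Eomes, and 0.155 at Tbx21, which was 2.81 higher in hSTAT5B than in WT. The level at Cd8b1 moved with genotype, and the part of cell makeup in the differences above was not tested. In bulk samples, a change in the share of a cell type and a change within its cells cannot be told apart.

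Lectin-like receptor genes are near copies of each other, and reads can be placed on the wrong copy. Of the 921 CpGs, 234 (25.4%) had a copy of their 51-base window elsewhere in the interval with at most 2 mismatches, and 101 an identical one. The search compared unconverted bases within the interval only. It could not find copies elsewhere in the genome, or copies that become alike after bisulfite conversion. The share was 75% in the Klre1 to Klri2 block (9 of 12), 45.2% in the Ly49 block, 42.9% in the stretch around Cd69 (6 of 14, 4 of them identical), 37.0% in the Klrb1 and Clec2 block, and 2% in the flank. The CpG before Cd69 at 129284216 had no copy in the interval with fewer than 8 mismatches. The named Klra10 CpG had a copy with 1 mismatch and the CpG 22847 bp from Klra5 also 1, so their levels are uncertain. The level of the gene Klra10, which rests in part on that CpG, is uncertain as well. Of the named bins, that at 129170001 held covered CpGs with copies at 1 or 2 mismatches and that at 129800001 CpGs with identical copies. The reads of these bins are uncertain too. The CpGs of the Klrb1f bin had 6 or more mismatches to any other place in the interval, and the placement of its reads was not tested beyond that. Over the 687 CpGs with no copy in the interval at 2 or fewer mismatches, the level in hSTAT5B N642H was 0.896 percentage points below WT.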

How the data were processed

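RRBS libraries of single-end reads were made by the authors from MspI-digested, bisulfite-converted DNA, trimmed with Trimmomatic, and aligned to GRCm38 with BSMAP in RRBS mode. Versions are not given in the sources used here. The deposited files hold, per CpG and library, a pair of methylated and total reads and a score, in which the authors gave that ratio on a scale up to 1000. The score was used only to check the reads. Libraries had 43291086 to 67007186 reads at 2597893 to 3445555 CpGs, and a median of 19 to 34 reads per covered CpG of the interval. There are no molecular identifiers, so reads are not independent molecules.

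Genes were taken from GENCODE M21, and sequences from RefSeq (GRCm38). All CpGs of chromosome 6 in the files are CG in this genome. Genes (at least 3 CpGs within the body and 2 kb on each side), CpGs, and 5-kb bins (at least 30 reads in sum) were each fitted over the whole genome with limma 3.58.1 in R 4.3.3. A single model held the 6 libraries, and p-values were adjusted after Benjamini and Hochberg, with calls under 0.05. Reads at a bin's CpGs were summed, so that 1 read counts at each CpG it covers. CpG islands were called with the UCSC rule. Named items were genes with at least 3 covered CpGs, promoters of receptor genes with a covered CpG, and per comparison the 5 CpGs and 5 bins with the smallest p, of which those of 1 locus are not reported here. The members and lists were chosen with earlier results of these data known. The code was tested on simulated data. Alternatives were other read minimums, pooled reads, windows, offsets, scalings, models, Fisher's exact test, the replicate number as a block, and leaving out each library. Python 3.11.15 and scipy 1.17.1 were used for the rest.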

Additional observations from a re-analysis of the deposited data

How the results depend on the processing

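Of the 159 values of the comparisons under alternatives, 146 kept their direction and side of the threshold. The lower level in hSTAT5B N642H than in WT held under all of them, leave-one-out values from -1.05 to -0.956 percentage points included, and so did that against hSTAT5B (-0.864 to -0.641). The interval from Klrb1a on, the receptor genes alone, and the CpGs without near copies were added after seeing the data. The hSTAT5B minus WT level turned to 0.0949 with pooled reads. Fisher's exact test on pooled reads ignores the spread between libraries. In hSTAT5B N642H minus WT, hSTAT5B minus WT, and hSTAT5B N642H minus hSTAT5B it called 13, 3, and 12 genes. It called 3, 4, and 5 CpGs in the same order, where limma and the quasi-binomial model called 0 genes and 0 CpGs. Without the shares of all genes and CpGs called, these counts cannot be read as particular to the complex. Bins called in hSTAT5B N642H minus WT were 2 with a pseudocount of 0.1 (those at Klrb1f and Tulp3), and 0 to 24 with a library left out. In hSTAT5B minus WT the range was 0 to 12, with 12 without WT replicate 2. Interval RPM in hSTAT5B N642H minus WT went from -11.1 to 21.4 with a library left out, against 5.13, and were -8.90 without WT replicate 2. In hSTAT5B minus WT they turned from -17.5 to 16.5 over CpGs read in all 6 libraries. The causes were not tested, beyond what each setting leaves out.

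The replicate numbers were not taken to pair samples, since deviations of same-numbered libraries in gene log2 ratios correlated at -0.0149, -0.0165, and 0.0108. Such small correlations cannot show that no batch was shared. With the replicate block, 0 genes, 0 CpGs, and 0 bins of the interval were called in each comparison, as without it. Of 639 values for named genes, CpGs, and bins, 570 moved by less than the spread between replicates, and 59 had the opposite sign. Leaving out either library of a pair moves a difference by no more than that spread, whatever the data. Values from that setting were therefore bound to stay within it, and the 570 do not show that the values were robust. With 2 libraries per genotype, 0 calls do not show that levels were equal.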
